A study of Mus musculus with 12 samples.

Results

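Female brains from a winter-like room (FSC) were compared with female brains from a summer-like room (FLW) across all measured genes. The comparison used 6 of the 12 libraries of the series, 3 in each group. A gene was kept where it had at least 1 FPKM (fragment counts scaled by transcript length and by library size) in at least 3 of these 6 libraries, which held for 12912 of 18962 genes. Brain without cerebellum and olfactory bulb was taken in the early afternoon from wild-type CBA/N mice after 4 weeks of housing. FSC mice were kept at 10 °C on short days, with light for 8 h and darkness for 16 h, and FLW mice at 30 °C on long days, with light for 16 h and darkness for 8 h. The 2 male groups of 3 libraries, MSC from the winter-like room and MLW from the summer-like room, are used beside them. The labels leave the codes unexplained, and the first letter was taken here for the sex and the letters SC and LW for short-cold and long-warm. The rooms differed in both light and temperature, and the effects of these cannot be told apart. The sources used here give no age for the mice. Nothing in the labels ties the 3 libraries of a group to separate animals, so a p-value reflects how far these samples vary, and that variation may be technical.

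Mammals read the season mainly from day length, which sets how long melatonin is secreted each night. In seasonal species melatonin acts on the pars tuberalis of the pituitary, where it controls thyrotropin and, through it, the local activation of thyroid hormone in the hypothalamus. The daily clock behind this system is a loop in which the activators CLOCK and BMAL1 (the product of Arntl) drive the repressors PER, CRY and CIART and output factors such as DBP. CBA mice are known as a strain that makes melatonin, unlike many laboratory strains. The substrain CBA/N is also known for a mutation of Btk, a kinase gene of B cells, which all groups would share.

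FPKM sums ran from 361273 to 366641 in FSC libraries and from 358511 to 375041 in FLW libraries, with 16861 to 17003 genes above 0. FPKM carries no read depth, and counting error therefore cannot be stated. The Y-linked genes Ddx3y and Eif2s3y stood at 0.03 FPKM or less in all 6 libraries. The cerebellar genes Pcp2, Gabra6 and Cbln3 reached 2.05, 1.9 and 2.64 FPKM in FSC1 and stayed at 0.96 FPKM or less in the other 5. The 5 most abundant genes were Gapdh, Snap25, Ppia, Eef1a1 and Mbp, which encode a glycolytic enzyme, a synaptic fusion protein, a prolyl isomerase, a translation elongation factor and a myelin protein. Between FSC and FLW they differed by 0.08 ± 0.07, 0.07 ± 0.08, 0.01 ± 0.08, -0.05 ± 0.06 and 0.01 ± 0.11 (log2 difference ± SE). The leading principal component of the female libraries held 40.6% of the variance. Along it FSC1 (0.1015) and FLW3 (0.0981) lay opposite to FLW1 (-0.0942). The values of FSC1 and FLW3 trended with transcript GC content, with Spearman correlations of -0.604 in FSC1 and -0.663 in FLW3. The correlations cover 12784 genes that are not independent replicates. FLW1 had the opposite trend, at 0.476. These libraries belong to different groups, and the median absolute difference between a pair of libraries was as large within a group (0.0708 to 0.154 on the log2 scale) as between groups (0.0718 to 0.1409).

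No gene passed the test of FSC against FLW across all genes. Limma, applied to log2(FPKM + 1) in a model of all 4 groups, called 0 of 12912 genes (0.000%) at a Benjamini-Hochberg adjusted p under 0.05. An unadjusted p under 0.05 was reached by 224 genes (1.73%), 105 higher (0.813%) and 119 lower (0.922%) in FSC, where 646 would pass if no gene differed. The values of FSC and FLW did not overlap for 537 genes (4.16%), 248 higher (1.92%) and 289 lower (2.24%) in FSC. More genes than this would separate if the order of the libraries were random. Non-overlap thus describes the values of a gene and makes no call. Differences were small: the median absolute log2 difference was 0.0412, 151 genes differed by 0.25 or more, 25 by 0.5 or more and 7 by 1 or more. At the median standard error of 0.0812 a gene called alone would have needed a log2 difference of about 0.589. A typical gene with a smaller difference could thus not have been called alone. The smallest adjusted p was 0.936 by limma, for the unnamed gene model Gm13306, and every gene named here apart from it had an adjusted p of 1. The unadjusted p-values given with the genes rank them and make no call.

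Most clock genes had a higher mean in FSC, and the activator gene Arntl a lower one. Brains were taken only in the early afternoon, so a shift of clock phase and a change of level cannot be told apart. Of 19 clock genes, 14 had positive and 5 negative FSC minus FLW differences, with a median of 0.099 on the log2 scale, against 6227 positive (48.2%) and 6684 negative (51.8%) and a median of -0.003 over all genes tested. An unadjusted p under 0.05 was reached by 4 clock genes higher in FSC (Ciart, Bhlhe41, Dbp and Per3) and 1 lower (Arntl). Among all genes tested 0.813% were higher and 0.922% lower at this level. The promoters of Ciart and Bhlhe41, the clock genes with the 2 smallest p-values, are shown because both hold the E-box through which CLOCK and BMAL1 are known to act. They are taken from RefSeq on GRCm38.p6, run from 250 bases before to 50 after the gene's start, and are read 5′ to 3′ on the gene's strand, with each E-box match (CACGTG) in capitals.
Ciart, chr3:95882179-95882478, minus strand: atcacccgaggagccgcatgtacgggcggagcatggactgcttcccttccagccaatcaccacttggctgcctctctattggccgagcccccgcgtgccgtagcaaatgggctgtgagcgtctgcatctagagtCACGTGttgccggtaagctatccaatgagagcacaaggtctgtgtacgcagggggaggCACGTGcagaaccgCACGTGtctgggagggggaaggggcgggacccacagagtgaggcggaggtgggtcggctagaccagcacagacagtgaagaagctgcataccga
Bhlhe41, chr6:145865371-145865670, minus strand: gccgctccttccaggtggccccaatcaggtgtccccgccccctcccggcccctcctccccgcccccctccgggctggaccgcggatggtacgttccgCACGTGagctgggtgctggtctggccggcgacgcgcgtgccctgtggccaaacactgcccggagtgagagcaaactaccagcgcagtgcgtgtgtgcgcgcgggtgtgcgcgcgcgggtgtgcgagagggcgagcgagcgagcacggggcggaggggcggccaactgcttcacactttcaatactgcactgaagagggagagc
The E-box occurred 3 times in the Ciart window and 1 time in that of Bhlhe41, and was in 5 of the 17 clock genes with a window (Bhlhe41, Ciart, Cry1, Per1 and Tef). Of all 32544 promoter windows, 7.17% held it. A clock gene was counted if any of its windows held the motif, so this count and the share of windows have unlike units. The letters of the E-box read the same on both strands. The D-box (TTATGNAA, both strands) was in Per1 and Per3 and in 3.39% of all windows. The windows of Dbp and Per3, which were also higher in FSC, held no E-box, and that of Dbp held no D-box. A match describes these letters and is neither a bound site nor a cause.

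Ciart, a repressor within the clock, had 15.46, 13.25 and 19.53 FPKM in FSC libraries, against 7.96, 11.47 and 11.57 FPKM in FLW libraries. All FSC values lay above all FLW values, with the largest gap between FSC3 and FLW1. The log2 difference was 0.59 ± 0.19 (SE), with means of 16.1 ± 3.19 FPKM in FSC and 10.3 ± 2.06 FPKM in FLW (SD), on 3 libraries each (limma, unadjusted p = 0.00648). Dbp, a clock-controlled transcription factor of the PAR bZIP family, had 54.58, 58.34 and 60.78 FPKM in FSC, against 42.51, 46.42 and 50.4 FPKM in FLW. Its groups did not overlap, and the difference was 0.31 ± 0.12. Arntl, which encodes the activator BMAL1, had 11.31, 10.28 and 10.72 FPKM in FSC and 14.11, 11.99 and 12.18 FPKM in FLW. It was the 1 clock gene whose FSC values all lay below the FLW values, with a difference of -0.22 ± 0.10. In the male brains the differences of Ciart, Dbp and Arntl (MSC minus MLW) were 0.84 ± 0.19, 0.69 ± 0.12 and -0.36 ± 0.10.

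Bhlhe41, a repressor also called DEC2, had 8.87, 7.76 and 8.67 FPKM in FSC and 6.4, 7 and 8.03 FPKM in FLW, a difference of 0.22 ± 0.08. FLW3 lay above FSC2, so its groups overlapped. Per3, a period gene chosen after its values were seen, had 12.72, 14.45 and 15.33 FPKM in FSC and 12.01, 11.53 and 13.35 FPKM in FLW, also with an overlap. Nr1d1 encodes REV-ERBα, which represses Arntl. It had 58.37, 60.95 and 64.61 FPKM in FSC and 60.6, 57.45 and 49.97 FPKM in FLW, a difference of 0.13 ± 0.13, while the male difference was 0.51 ± 0.13. Per2, a period gene, had a difference of 0.13 ± 0.21, and -0.04 without FSC3. FSC3 was the highest library for 11 of the 19 clock genes and FLW1 the lowest for 9; among all genes tested they were highest for 11.5% and lowest for 22.0%. Without FSC3 the list had 12 positive and 7 negative members and a median of 0.040, and without FLW1 it had 12 and 7 and a median of 0.076. The part of these libraries in the pattern was not tested further.

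**Figure D1:**
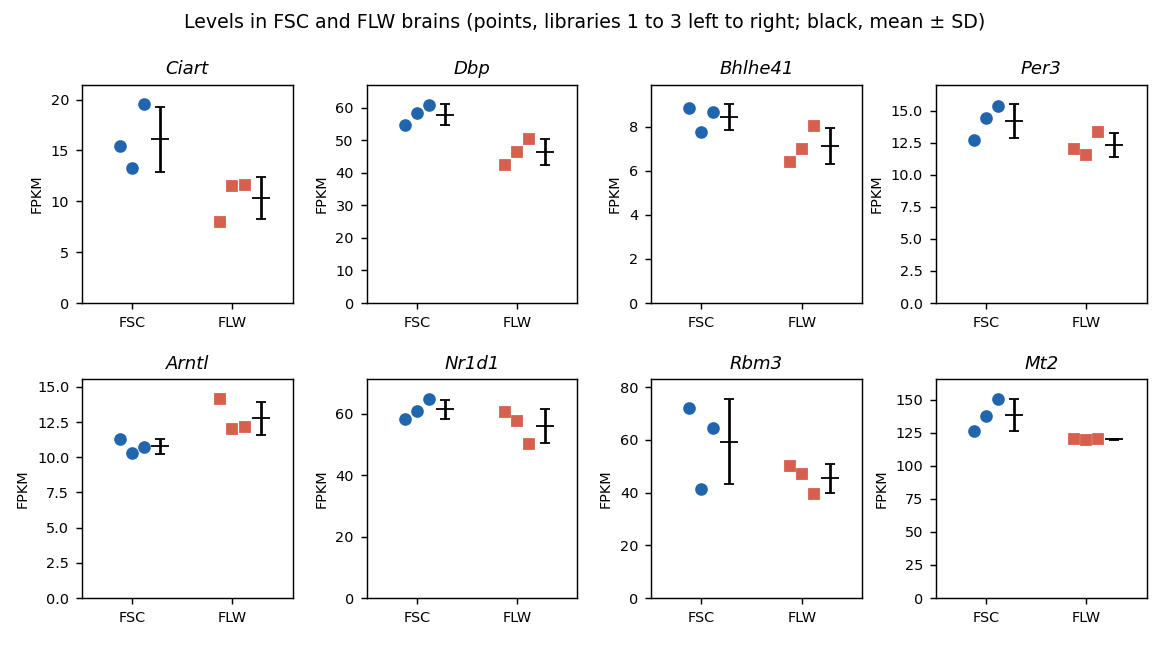
FPKM of 6 clock genes, the cold-inducible gene Rbm3 and the metallothionein gene Mt2 in FSC and FLW libraries (points in the order of libraries 1 to 3; black, mean ± SD, n = 3 each; axes start at 0). FSC and FLW do not overlap for Ciart, Dbp, Arntl and Mt2, with Arntl lower in FSC, and they overlap for the other 4.

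Metallothioneins bind zinc and copper and are known to be induced by metals, glucocorticoids and stress. The Mt2 promoter is shown because metal response elements in this region are what the metal-sensing factor MTF1 binds. Capitals mark the element's core (TGCACNC or TGCGCNC, both strands) in the RefSeq window on GRCm38.p6.
Mt2, chr8:94172368-94172667, plus strand: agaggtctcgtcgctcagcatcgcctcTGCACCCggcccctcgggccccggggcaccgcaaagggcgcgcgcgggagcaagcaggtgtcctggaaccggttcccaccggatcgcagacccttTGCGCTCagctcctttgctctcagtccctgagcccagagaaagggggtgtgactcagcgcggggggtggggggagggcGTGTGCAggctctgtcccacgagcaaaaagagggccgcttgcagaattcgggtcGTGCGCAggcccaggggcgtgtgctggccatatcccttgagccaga
The window held 4 matches, and 25.85% of all windows held at least 1. Mt2 had 126.37, 138.04 and 150.28 FPKM in FSC, against 120.23, 119.8 and 120.46 FPKM in FLW. The FLW libraries were nearly equal, and all FSC values lay above them, FSC1 by the least. The difference was 0.20 ± 0.06, with means of 138 ± 12 FPKM in FSC and 120 ± 0.335 FPKM in FLW (SD; limma, unadjusted p = 0.0048). In male brains it was 0.57 ± 0.06, and the female minus male difference of -0.37 ± 0.08 was not called (limma interaction, adjusted p = 0.999). Mt1, its neighbour on chromosome 8, overlapped between the groups, with 273.94, 355.46 and 357.31 FPKM in FSC and 332.86, 283.55 and 275.72 FPKM in FLW and a difference of 0.14 ± 0.10. Mt3, the remaining tested member of the list, went the other way, with a difference of -0.069.

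The 10 genes with the smallest p-values among those whose FSC values all lay above the FLW values were Tmem69, Txnip, Acer2, Kpna2, Rsph3b, Rnf207, Med11, Cfap45, Mt2 and Ciart. They have no common list, and their differences ran from 0.20 to 0.59. Txnip, which encodes a glucose-responsive inhibitor of thioredoxin (chr3:96557957-96561857, GRCm38.p6), had 6.49, 5.43 and 6.16 FPKM in FSC and 4.74, 4.55 and 4.42 FPKM in FLW. Each FSC library exceeded the highest FLW library, and the difference was 0.33 ± 0.08. It was 0.32 ± 0.08 in males. Acer2, a Golgi ceramidase gene, had 4.3, 6.12 and 6.18 FPKM in FSC and 2.55, 3.95 and 3.72 FPKM in FLW, a difference of 0.57 ± 0.15. FSC1 and FLW1 were the lowest library of their groups. Tmem69, a membrane protein gene, had 7.81, 6.81 and 6.56 FPKM in FSC and 5.05, 5.58 and 5.99 FPKM in FLW, a difference of 0.30 ± 0.07, against 0.01 ± 0.07 in males. Kpna2, which encodes a nuclear import adaptor, had a difference of 0.22 ± 0.06, and Med11, a Mediator subunit, had 0.25 ± 0.07. Rnf207, a ring finger protein gene, had 0.26 ± 0.07. Rsph3b, a radial spoke protein gene, had 0.33 ± 0.09, and reads can be shared with its close copy Rsph3a, so its own level is uncertain.

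The 10 genes with the smallest p-values among those lower in every FSC library were Ggcx, Ppp1r35, Fam173b, Rab13, Cox8b, Nos3, Fdxr, Cldn22, Ppp1r3d and Aasdh. Ggcx, the carboxylase that uses vitamin K (chr6:72414279-72433359, GRCm38.p6), had 6.5, 7.75 and 7.26 FPKM in FSC and 8.93, 8.69 and 9.06 FPKM in FLW. The difference was -0.28 ± 0.07 (limma, unadjusted p = 0.000949), and -0.18 ± 0.07 in males. Cox8b, a cytochrome c oxidase subunit isoform of heart and brown fat, had 2.03, 3.83 and 2.1 FPKM in FSC and 5.64, 4.34 and 4.21 FPKM in FLW. FSC2 lay close to the FLW libraries, and the difference of -0.68 ± 0.19 stood against 0.23 ± 0.19 in males. Ppp1r35, a centriole protein gene, had 1.99, 2.93 and 1.91 FPKM in FSC and 3.66, 3.35 and 3.05 FPKM in FLW, a difference of -0.42 ± 0.11. Nos3, the endothelial nitric oxide synthase, had -0.32 ± 0.09, and the small GTPase gene Rab13 had -0.31 ± 0.09. The mitochondrial genes Fdxr (ferredoxin reductase) and Fam173b (a lysine methyltransferase in humans), had -0.26 ± 0.08 and -0.28 ± 0.08. Ppp1r3d, which targets a phosphatase to glycogen, had -0.28 ± 0.09. Aasdh and the claudin gene Cldn22 had -0.24 ± 0.08 and -0.38 ± 0.12, and Cldn22 stayed at 1.44 FPKM or less in all 6 libraries.

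**Figure D2:**
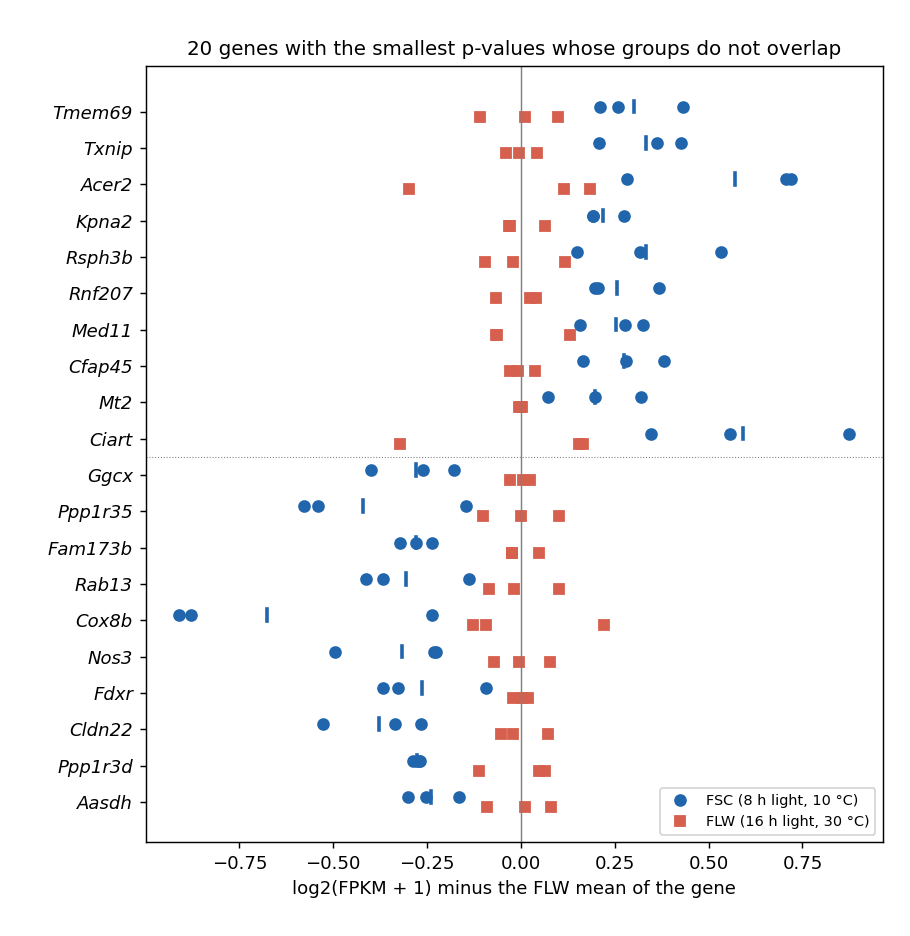
Each point is a library's log2(FPKM + 1) minus the FLW mean of the gene, for the 10 genes above and 10 below the dotted line with the smallest p-values among non-overlapping genes (circles, FSC; squares, FLW; bars, FSC mean). The largest differences are those of Ciart (0.59), Acer2 (0.57) and Cox8b (-0.68), and none of the 20 passed the adjusted threshold.

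The male libraries give values for the same genes in other samples. Non-overlap was read from the female libraries alone, while the p-values that ranked the named genes came from a model whose spread included the male libraries. Of the 248 genes higher in every FSC library, 161 (64.9%) had a positive MSC minus MLW difference, where 48.0% of all genes tested did. Of the 289 genes lower in every FSC library, 207 (71.6%) had a negative male difference, against 52.0% of all genes. MSC and MLW did not overlap in the same direction for 28 of the 248 and 49 of the 289, where 6.11% of all genes were higher and 6.55% lower in that way. They did not overlap in the opposite direction for 8 of the 248 and 6 of the 289. Among the 10 named higher genes 7 were positive in males and among the 10 named lower genes 6 were negative. These shares are a description, since genes of 1 sample are not independent replicates.

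The photoperiod and thyroid hormone list had 2 positive and 11 negative members of 13 tested, with a median of -0.034. Without FSC1 or without FLW1 there were 5 positive and 8 negative members, and without FSC3 or FLW2 there were 4 and 9; the median was -0.075 without FSC2. Tshb, the beta subunit of thyrotropin, had 0.99, 1.03 and 0.85 FPKM in FSC and 2.3, 1.63 and 0.99 FPKM in FLW, a difference of -0.40 ± 0.15 (limma, unadjusted p = 0.0183). FLW3 equalled FSC1, so the groups overlapped, and the male difference was 0.06 ± 0.15. Cga, the alpha subunit, was listed at 1.24, 0 and 0.85 FPKM in FSC and 3.25, 1.76 and 0 FPKM in FLW. FLW1 and FLW2 were the highest libraries for both subunits. Together with Pomc these genes make up the tested pituitary list, whose summed level was 2.47 to 4.14 FPKM in FSC and 1.71 to 6.75 FPKM in FLW. Of the pituitary genes below the filter, Prl, the prolactin gene, had 1.86, 0 and 1.71 FPKM in FSC and 0.13, 0 and 0 FPKM in FLW. Gh, the growth hormone gene, had 0.36, 0 and 0.39 FPKM in FSC and 0.07, 0 and 0 FPKM in FLW, while Fshb and Pou1f1 were at 0 in all 6 libraries. Prl and Gh were thus highest in FSC1 and FSC3, and Tshb and Cga in FLW1 and FLW2; how much pituitary tissue each sample held was not tested. Eya3, a transcriptional coactivator of Tshb, had -0.21 ± 0.11. The deiodinases Dio2 and Dio3, which activate and inactivate thyroid hormone, had -0.07 ± 0.13 and -0.15 ± 0.13. The thyroid hormone target Klf9 had 0.19 ± 0.10.

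Among hypothalamic peptide genes the list median was 0.013, with 8 positive and 8 negative members. Without FLW1, the highest library for 6 of the 16, there were 14 positive and 2 negative members and the median was 0.105. Among all genes tested FLW1 was the highest library for 23.8%. Without FLW3 the list median was -0.022. Avp, which encodes vasopressin, had the smallest p of the list, with 23.31, 29.56 and 29.56 FPKM in FSC and 23.54, 17.86 and 15.44 FPKM in FLW. FLW1 lay above FSC1, and the difference was 0.53 ± 0.13 (limma, unadjusted p = 0.00121), against 0.40 ± 0.13 in males. Oxt, which encodes oxytocin, had -0.07 ± 0.17, and 0.08 without FSC3. Npy, a peptide of interneurons and of feeding circuits, had 61.67, 72.09 and 63.89 FPKM in FSC and 77.06, 78 and 72.51 FPKM in FLW. All FSC values lay below the FLW values, and the difference was -0.20 ± 0.07. Pomc, the precursor of melanocortins, had 1.91, 1.44 and 1.52 FPKM in FSC and 1.2, 1.12 and 0.72 FPKM in FLW, a difference of 0.39 ± 0.18 without overlap.

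Rbm3 and Cirbp encode RNA-binding proteins known to be induced by mild cooling of cells. Rbm3 had 72.24, 41.29 and 64.43 FPKM in FSC and 50.12, 46.96 and 39.47 FPKM in FLW, a difference of 0.34 ± 0.17. Cirbp had 63.18, 44.29 and 54.12 FPKM in FSC and 50.55, 47.16 and 41.86 FPKM in FLW, a difference of 0.20 ± 0.15. FSC2 lay within the FLW range for both genes, and FSC1 was the highest and FLW3 the lowest library. FSC1 and FLW3 are also the libraries with the strongest GC trends; with a correction for that trend the 2 differences were 0.35 and 0.20, and without both libraries they were 0.09 for Rbm3 and 0.004 for Cirbp. Without FSC1 alone they were 0.18 and 0.08. In males the differences were 0.55 ± 0.17 and 0.45 ± 0.15.

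Glucocorticoid-responsive genes had 13 positive and 3 negative members of 16 tested, with a median of 0.168. FSC3 was the highest library for 12 of the 16, and the list stood at 0.273 in FSC3, between -0.061 and 0.024 in the other FSC libraries and between -0.102 and -0.036 in FLW libraries (mean log2 deviation from the 6-library mean). Sgk1, a kinase gene induced by corticosteroids, had 20.41, 20.2 and 36.1 FPKM in FSC and 18.7, 17.94 and 17.53 FPKM in FLW. The groups did not overlap, but FSC3 stood far above the other 5, and the difference of 0.43 ± 0.16 was 0.16 without FSC3. Tsc22d3, which encodes the glucocorticoid-induced leucine zipper, had 29.77, 29.7 and 34.74 FPKM in FSC and 25.24, 24.91 and 29.2 FPKM in FLW, a difference of 0.24 ± 0.11. Sult1a1, a sulfotransferase gene, had 0.39 ± 0.17, and 0.17 without FSC3. Without FSC3 the list had 12 positive and 4 negative members and a median of 0.063. This list also holds Mt2, Mt1, Per1 and Klf9.

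FSC3 stood apart in serotonergic genes as well. Tph2, which makes serotonin in raphe neurons, had 2.2, 1.22 and 5.8 FPKM in FSC and 0.79, 2.19 and 0.78 FPKM in FLW. Slc6a4, the serotonin transporter gene, did not pass the filter, with 0.81, 0.66 and 3.46 FPKM in FSC and 0.4, 0.91 and 0.44 FPKM in FLW. All 7 tested members of the list had positive differences with a median of 0.125, and 4 of 7 did without FSC3. Tph2 itself had 0.75 ± 0.32, or 0.30 without FSC3. In whole tissue, fewer cells of a type and less RNA per cell cannot be told apart, here and in the cell type lists that follow.

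Immediate early genes, which neurons transcribe within minutes of activity, had 1 positive and 17 negative members of 18 tested, with a median of -0.142. FLW2 was the highest library for 17 of the 18, at a mean log2 deviation of 0.585, with the other 5 libraries between -0.261 and 0.055. Among all genes tested FLW2 was the highest library for 10.6%. Arc, a synaptic activity gene, had 13.89, 22.24 and 23.85 FPKM in FSC and 12.97, 63.13 and 15.65 FPKM in FLW. Fos had 3.4, 4.29 and 6.42 FPKM in FSC and 4.59, 14.97 and 3.56 FPKM in FLW, and its difference was -0.41 ± 0.55. Egr1 reached 79.33 FPKM in FLW2, with at most 51.19 FPKM in the other 5 libraries. Junb, chosen after its values were seen, reached 20.43 FPKM in FLW2, with at most 10.4 FPKM in the others. Without FLW2 the list turned to 13 positive and 5 negative members with a median of 0.074. Npas4, which is induced by calcium entry in neurons, had -0.36 ± 0.22, and -0.12 without FLW2.

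Olfactory bulb markers, genes of a region the dissection left out, had 0 positive and 5 negative members, with a median of -0.331, the most negative list median after that of the pituitary hormones (-0.403). Their summed level was 27.12, 20.26 and 23.02 FPKM in FSC and 26.77, 33.41 and 28.03 FPKM in FLW. Omp, the defining gene of olfactory sensory neurons, stayed at 0.99 FPKM or less. Doc2g had 7.12, 4.68 and 5.38 FPKM in FSC and 7.08, 8.66 and 7.5 FPKM in FLW, a difference of -0.39 ± 0.14. Nmb, the neuromedin B gene, had 3.35, 3.44 and 3.78 FPKM in FSC and 3.99, 4.87 and 4.13 FPKM in FLW, without overlap (-0.23 ± 0.10). S100a5 and Cdhr1 had -0.79 ± 0.40 and -0.33 ± 0.20. FLW2, the library with the highest immediate early genes, was also the highest for 4 of these 5 genes, and without it all 5 were still negative with a median of -0.286. Whether the 2 facts are linked was not tested.

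Choroid plexus genes, of the epithelium that makes cerebrospinal fluid, had 8 positive and 1 negative member of 9, with a median of 0.154; in males the median was -0.229, with 1 positive and 8 negative. FLW1 was the lowest library for 9 of the 9, and without it 6 members were positive and 3 negative with a median of 0.062. Ttr, the most abundant of them and the carrier of thyroid hormone, had 414.05, 375.57 and 363.28 FPKM in FSC and 303.35, 407.66 and 331.43 FPKM in FLW, a difference of 0.15 ± 0.12. Kl, which encodes klotho, had 0.23 ± 0.11, and Sostdc1, a BMP antagonist gene, had 0.29 ± 0.16. Otx2, a transcription factor gene of this epithelium, had 2.24, 1.98 and 2.56 FPKM in FSC and 1.73, 1.9 and 1.9 FPKM in FLW, a difference of 0.19 ± 0.10 without overlap. Its male difference was -0.35 ± 0.10.

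Ependymal and motile cilia genes had 7 positive and 4 negative members of 11, with 3 higher at an unadjusted p under 0.05, as were 0.813% of all genes. FSC and FLW did not overlap for 3 members higher and 1 lower in FSC, as for 1.92% and 2.24% of all genes tested. The most negative difference of the list was -0.159. Cfap45, an axonemal protein gene, had 1.78, 1.59 and 1.39 FPKM in FSC and 1.19, 1.12 and 1.09 FPKM in FLW (0.28 ± 0.08). Ccdc153 had 1.8, 2.17 and 2.47 FPKM in FSC and 1.03, 1.67 and 1.64 FPKM in FLW (0.37 ± 0.16), and Mia had 0.30 ± 0.13. These levels are close to the filter of 1 FPKM. Microglial genes had 1 positive and 13 negative members of 14, with a median of -0.076. FLW1 was the highest library for 8 of the 14, as for 23.8% of all genes tested, and without it 5 were positive and 9 negative. Trem2 and Ctss, a receptor and a protease of microglia, had -0.17 ± 0.11 and -0.08 ± 0.06. Gpr17, a receptor of committed oligodendrocyte precursors, had 7.93, 9.21 and 10.57 FPKM in FSC and 11.15, 10.83 and 11.71 FPKM in FLW, without overlap. Its difference of -0.26 ± 0.10 stood beside -0.50 ± 0.10 in males, while its list had 8 positive and 4 negative members. The myelin gene Mbp and the astrocyte gene Gfap had 0.01 ± 0.11 and -0.001 ± 0.079. The list of myelinating oligodendrocytes had 4 positive and 9 negative members of 13, with a median of -0.041. The astrocyte list had 8 positive and 4 negative members of 12, with a median of 0.008. Cldn5, a tight junction gene of brain endothelium, had 13.07, 12.93 and 9.13 FPKM in FSC and 19.04, 14.25 and 13.32 FPKM in FLW. All FSC values lay below the FLW values (-0.38 ± 0.17), and the endothelial list had 7 positive and 5 negative members.

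**Figure D3:**
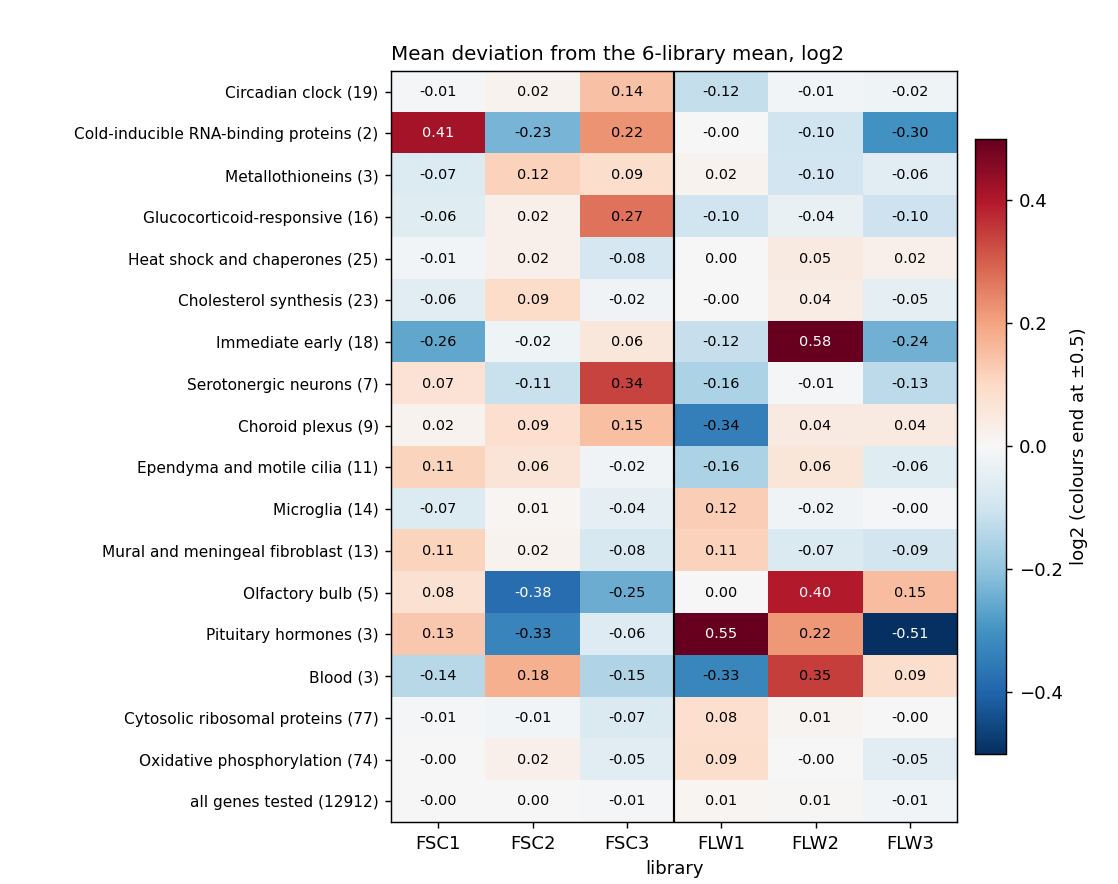
Mean log2 deviation of each gene list from the 6-library mean of each gene, by library, with FSC left of the vertical line and FLW right of it (number of tested genes in brackets). Single libraries stand out within their group for immediate early genes (FLW2, 0.585), choroid plexus genes (FLW1, -0.343) and serotonergic genes (FSC3, 0.336).

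Retinoid signalling, which depends on aldehyde dehydrogenases that make retinoic acid, had 6 positive and 6 negative members. Aldh1a1 had 45.75, 43.13 and 41.98 FPKM in FSC and 38.49, 41.08 and 37.63 FPKM in FLW (0.16 ± 0.06). Stra6, the retinol-binding protein receptor, had 2.28, 3.14 and 2.26 FPKM in FSC and 1.97, 2.08 and 1.88 FPKM in FLW (0.25 ± 0.11). Rxrg, a retinoid X receptor gene, had 7.19, 8.83 and 8.59 FPKM in FSC and 10.08, 9.61 and 9.24 FPKM in FLW (-0.21 ± 0.08). These 3 had the smallest p-values of the list and were the only ones of its 12 tested members without overlap, 2 higher and 1 lower. Among all genes tested 1.92% were higher and 2.24% lower without overlap.

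Cytosolic ribosomal protein genes had 9 positive and 68 negative members of 77, with a median of -0.054. FLW1 was the highest library for 36 of them (46.8%) and FSC3 the lowest for 40 (51.9%). Among all genes tested these shares were 23.8% and 16.0%. The counts were 24 positive and 53 negative without FSC3, and 19 and 58 without FLW1. Rps12 had 169.31, 197.6 and 203.65 FPKM in FSC and 219, 213.38 and 217.99 FPKM in FLW, without overlap (-0.19 ± 0.07). Rpl34 also did not overlap (-0.14 ± 0.06), while Rpl18 did (-0.17 ± 0.07). In males the list had 33 positive and 44 negative members. Ribosomal protein genes have many processed copies, so reads can be split among them. Oxidative phosphorylation genes had 31 positive and 43 negative members of 74, with a median of -0.026. The counts turned to 42 positive and 32 negative without FSC3 (median 0.017) and to 39 and 35 without FLW1 (0.002). Cox6c, a cytochrome c oxidase subunit, had -0.14 ± 0.07 without overlap, and Atp5o, an ATP synthase subunit, had 0.24 ± 0.12.

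Heat shock and chaperone genes had 8 positive and 17 negative members of 25, with a median of -0.036, and 13 and 12 without FSC3. Cryab, a small heat shock protein of glia, had 83.23, 90.55 and 60.82 FPKM in FSC and 105.34, 84.54 and 86.05 FPKM in FLW (-0.24 ± 0.13). FSC3 was the lowest library, and the difference was -0.075 without it and -0.14 without FLW1. Hspb1 and Hspa1b had -0.23 ± 0.15 and -0.23 ± 0.15, and the value of Hspa1b is uncertain because of its copy Hspa1a. The constitutive chaperone gene Hspa8 had -0.04 ± 0.08. In males 1 member was positive and 24 negative. Cholesterol synthesis genes had 13 positive and 10 negative members of 23, with a median of 0.007, against 21 and 2 in males. Lss, which encodes lanosterol synthase, had 8.6, 8.55 and 8.55 FPKM in FSC and 7.71, 8.19 and 7.43 FPKM in FLW, without overlap (0.13 ± 0.07). The sterol sensor gene Insig1 had 0.07 ± 0.06. Whether any list differed between the sexes was not tested.

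**Figure D4:**
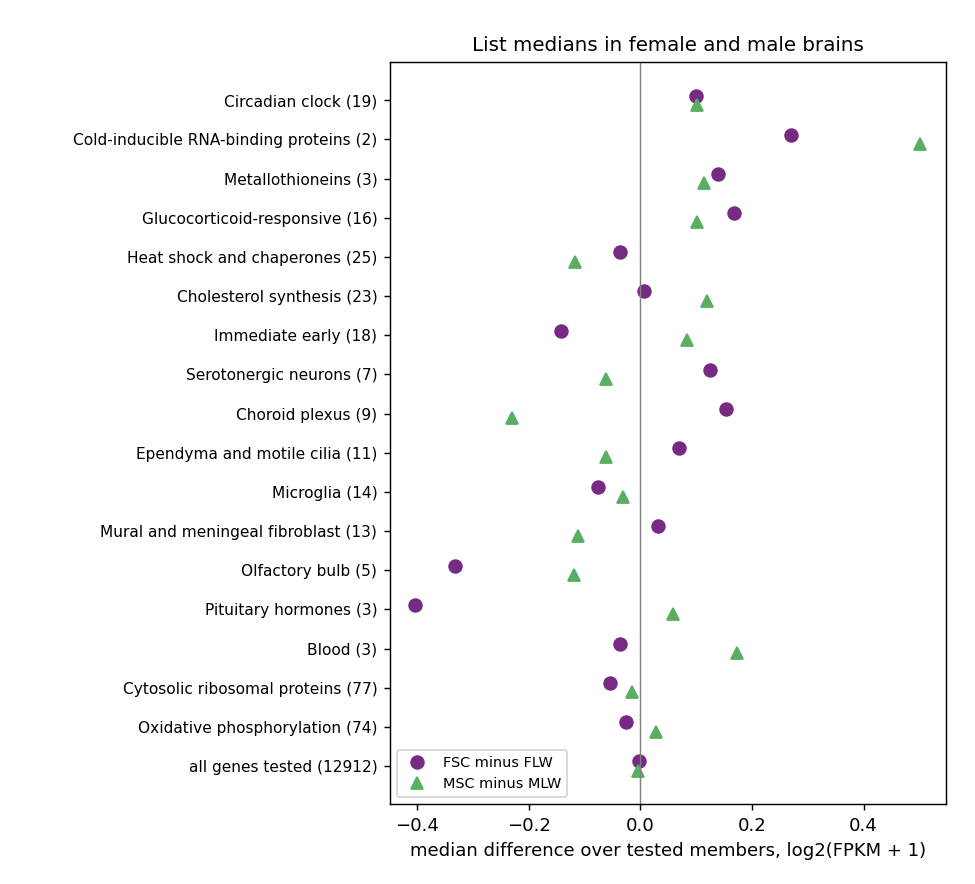
Median log2 difference over the tested members of each list (number in brackets), for FSC minus FLW (circles) and MSC minus MLW (triangles). The circadian clock medians are 0.099 and 0.101, whereas choroid plexus genes lie at 0.154 in females and -0.229 in males.

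Some of the largest differences between groups came from genes that also varied within a group. Ccl27b, a chemokine gene, had 9.11, 7.64 and 8.74 FPKM in FSC and 0.59, 8.86 and 1.18 FPKM in FLW. Gm13306, a gene model of the same region of chromosome 4 that was chosen after its values were seen, had 1.11, 0 and 0.34 FPKM in FSC and 12.14, 2.26 and 6.13 FPKM in FLW, a difference of -2.25 ± 0.41. It was called without FLW2 (-2.78; limma, adjusted p = 0.0262). FLW2 was the highest FLW library for Ccl27b and the lowest for Gm13306. Ccl27a, another gene of the family, also chosen after its values were seen, ranged from 28.27 to 38.88 FPKM. These genes are close copies that can share reads, so their separate levels are uncertain. Tmem254b and Tmem254c are a similar pair: FSC3 had 0 FPKM of Tmem254b and 18.26 FPKM of Tmem254c, while the other 5 libraries had 10.21 to 16.22 and 2 to 9.73 FPKM. Gdf1, whose span overlaps Cers1, was listed at 0, 6.8 and 7.47 FPKM in FSC and at 0, 0 and 4.29 FPKM in FLW. Grin2b, an NMDA receptor subunit gene, had 1.68, 5.45 and 6.53 FPKM in FSC and 1.41, 5.94 and 5.85 FPKM in FLW, so that FSC1 and FLW1 were low. The haemoglobin gene Hba-a1 had 66.14, 150.16 and 119.78 FPKM in FSC and 72.17, 185.02 and 216.26 FPKM in FLW. Hbb-b1 and Hbb-b2 had differences of -0.13 ± 0.33 and -0.22 ± 0.39. Haemoglobin genes are also near-identical copies.

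**Figure D5:**
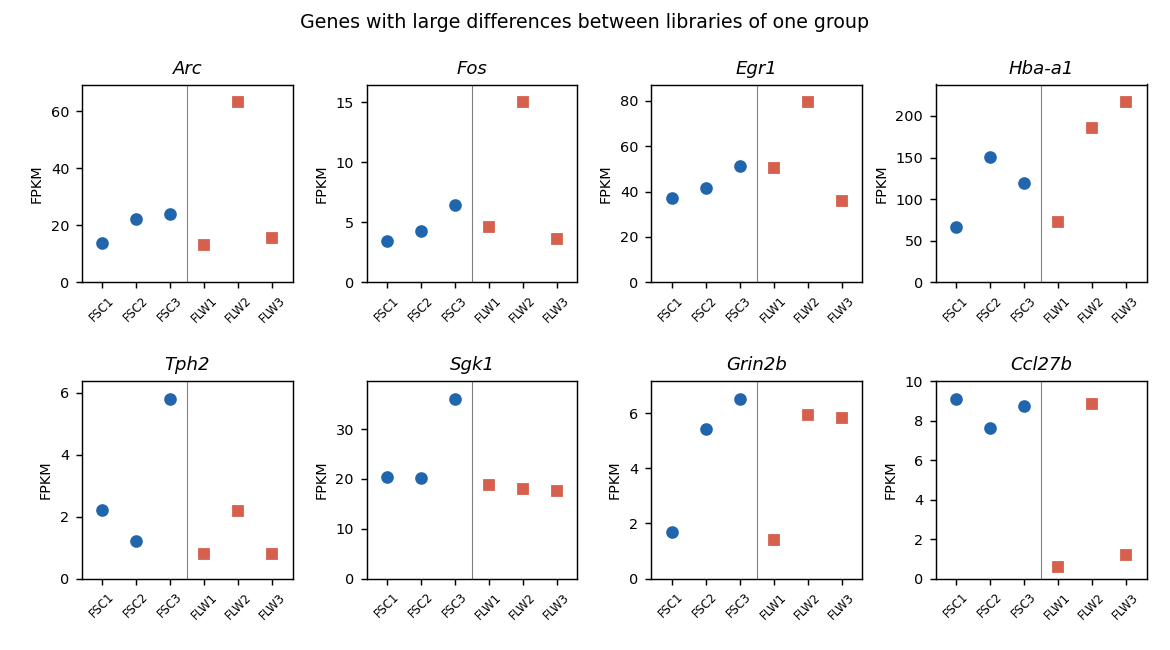
FPKM in each library of 8 genes with large differences between libraries of 1 group (circles, FSC; squares, FLW; axes start at 0). FLW2 stands apart for Arc, Fos and Egr1, FSC3 for Tph2 and Sgk1, and FSC1 and FLW1 for Grin2b.

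Whether the difference between rooms was itself different in females and males was tested as an interaction. Limma called 0 of 12912 genes (0.000%), with 232 at an unadjusted p under 0.05 (1.80%). In males 1 gene was called (0.00774%), Mt2, with 652 at an unadjusted p under 0.05 (5.05%). The 5 named genes with the smallest interaction p-values were Mfap2, Mt2, Amn, Cfap45 and Otx2, with an adjusted p of 0.999 each by limma. Mfap2, a microfibril protein gene, had 3.13, 3.42 and 2.8 FPKM in FSC and 3.43, 3.61 and 3.09 FPKM in FLW, a difference of -0.09 ± 0.08 beside 0.44 ± 0.08 in males. Amn, which encodes amnionless, had -0.21 ± 0.11 beside 0.44 ± 0.11 in males. The absence of calls does not show that the effects were alike.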

How the data were processed

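Poly-A selected, paired-end, strand-specific RNA-seq libraries of brain were made, per the labels' protocols, and the authors deposited FPKM values per gene and library for the whole series. The submitters' processing notes name HISAT, RSEM and GRCm38.p6; no version of them is given in the sources read. Values of 18962 genes were read, of which 18836 IDs matched RefSeq, 25 symbols that had turned into dates were restored, and 1 line without values was not used. No library total or count was used, so the depth and the counting error are unknown. Columns of other samples numbered 0.

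Genes that reached 1 FPKM in 3 or more of the 6 female libraries were tested on log2(FPKM + 1), with a pseudocount of 1; this scale understates the difference of low genes. A limma model with the means of 4 groups of 3 libraries, 8 residual degrees of freedom and a trended prior variance gave FSC minus FLW, MSC minus MLW and their difference, with Benjamini-Hochberg adjustment at 0.05 over all genes tested. It was tested on simulated data with independent noise and the same spread in every library. Those data held no trend of whole libraries, as with GC content, so the test does not cover such trends. Named genes were called genes; the 10 smallest p-values in each direction among non-overlapping genes with a proper name; up to 4 members of each list by smallest p; a fixed set of clock, cold, hormone, activity and glial genes; the 10 genes with the largest within-group spread at a mean of at least 2 FPKM; the 5 smallest interaction p-values; and the 5 most abundant genes. The comparison, its gene lists and its rules were chosen with earlier results of these data known. Alternatives were the pseudocount, the filter, 3 scalings, a constant prior variance, the female libraries alone, sample weights, a replicate block, a GC correction and leaving out each library. Leaving out FSC1 and FLW3 together, and recounting each list without each library, were alternatives chosen after seeing the data. The software was R 4.3.3 with limma 3.58.1, data.table (version 1.17.8), statmod 1.5.0, Python 3.11.15, pandas 2.3.3, numpy 2.4.6, scipy 1.17.1 and matplotlib 3.10.9.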

Additional observations from a re-analysis of the deposited data

Results flagged for a closer look

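For Cfap45 and Otx2 the groups of the 2 rooms did not overlap in either sex, and the direction was opposite in females and males. Cfap45, an axonemal protein gene, had a log2 difference of 0.28 ± 0.08 (SE) for FSC minus FLW and -0.19 ± 0.08 for MSC minus MLW. The female minus male difference was 0.462, with an unadjusted p of 0.00115 and an adjusted p of 0.999 by limma. Otx2, a transcription factor gene of the choroid plexus, had 0.19 ± 0.10 for FSC minus FLW and -0.35 ± 0.10 for MSC minus MLW. Its female minus male difference was 0.54, with an unadjusted p of 0.00168 and an adjusted p of 0.999 by limma. Neither difference passed the threshold. No outlier test was applied to groups of 3 libraries; the libraries that stood apart are described with the results.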

How the results depend on the processing

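The count of genes called between FSC and FLW was 0 under the other pseudocount, both other filters, the 3 scalings, the constant prior variance, the 6 female libraries alone, the GC correction, and without FSC1 and FLW3. Leaving out 1 library gave 0 to 1, the 1 being Gm13306 without FLW2. Gene-by-gene sample weights called 1 gene, Avp (0.65, adjusted p = 0.0355 by limma). REML sample weights called 300 genes, but that estimation stopped before it converged and gave FLW2 a weight of 20.696, against 0.304 to 1.56 for the other 11 libraries. The interaction had 0 calls throughout. The deviations of same-numbered FSC and FLW libraries correlated at -0.237, 0.077 and -0.141, and those of MSC and MLW at 0.244, -0.083 and 0.104. These values do not settle whether same-numbered libraries were paired, since trends of whole libraries, as with GC content, also enter them. With the replicate block 1 gene was called, and with the GC correction and the block 1, Gm13306 in both.

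Genes at an unadjusted p under 0.05 numbered 499 with no filter on low values, 1091 and 2652 with the 2 kinds of weights, 468 with the GC correction and the block, and 192 to 475 without 1 library. The median of all genes moved by less than 0.004 between scalings, and no list median changed sign with a scaling. Leaving out 1 library did move several list medians across 0: -0.039 to 0.017 for oxidative phosphorylation, -0.083 to 0.002 for heat shock, -0.012 to 0.043 for cholesterol synthesis, -0.022 to 0.105 for hypothalamic peptides, -0.273 to 0.074 for immediate early genes, -0.018 to 0.081 for retinoid signalling, -0.007 to 0.044 for oligodendrocyte precursors, -0.03 to 0.111 for mural genes, -0.067 to 0.02 for striatal neurons, -0.064 to 0.027 for catecholaminergic neurons, -0.041 to 0.009 for endoplasmic reticulum stress and -0.006 to 0.029 for fatty acid oxidation. Some differences changed direction, and the cause was not tested. Not all of these were small: in the main model Ttr had 0.154, Dio3 -0.155, Hba-a1 -0.424 and Hbb-b2 -0.219. Gfap was 0.002 scaled to equal sums, 0.001 with median-of-ratios scaling, 0.001 with the GC correction, and 0.001 with the correction and block. With quantile normalization Hspa8 was 0.048 and Ppia -0.022. Ttr was -0.053 with gene-by-gene weights and -0.117 with REML weights, which also gave 0.017 for Dio3 and -0.094 for Grin2b. Without FSC1 and FLW3 Ppia was -0.052, Hba-a1 0.212, Hbb-b1 0.332 and Hbb-b2 0.329.

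Leaving out 1 library gave ranges across 0 for 16 genes. They were -0.674 to 0.426 for Arc, -0.55 to 0.016 for Egr1, -0.763 to 0.141 for Fos, -0.4 to 0.318 for Junb, -0.069 to 0.077 for Gfap, -0.444 to 0.521 for Grin2b, -0.685 to 0.176 for Hbb-b1 and -0.875 to 0.123 for Hbb-b2. They were -0.083 to 0.002 for Hspa8, -0.089 to 0.124 for Mbp, -0.259 to 0.076 for Oxt, -0.04 to 0.282 for Per2, -0.064 to 0.078 for Ppia, -0.001 to 0.124 for Snap25, -1.769 to 0.284 for Tmem254b and -0.154 to 0.966 for Tmem254c. With 3 libraries a group and unknown depth, a typical gene called alone would have needed a difference of about 0.589.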

Other observations

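Further lists are given here beside a median of -0.003 over all genes tested. Fatty acid oxidation and ketone use genes had 10 positive and 6 negative members of 16 with a median of 0.014. Genes of the endoplasmic reticulum stress response had 9 positive and 10 negative members of 19 with a median of -0.011, and targets of NRF2, a regulator of antioxidant genes, had 8 and 4 of 12 with a median of 0.034. Genes of striatal projection neurons had 2 positive and 10 negative members of 12 with a median of -0.044, and 7 and 5 with a median of 0.02 without FSC1. Genes of GABAergic interneurons had 3 positive and 10 negative members of 13 with a median of -0.031. Mural and meningeal fibroblast genes had 8 positive and 5 negative members of 13, and their median was 0.032 in females and -0.111 in males. The female median was -0.03 without FSC1 (5 positive and 8 negative), -0.011 without FLW2 and -0.005 without FLW3. Genes of catecholaminergic neurons had 3 positive and 4 negative members of 7.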
